A study of Mus musculus with 12 samples.

Results

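A cluster of 158 nuclei with mesothelial markers lay inside the biliary annotation of a mouse liver single-nucleus RNA dataset of 53467 annotated nuclei. The nuclei named biliary epithelial cells number 285 and fall into a cluster of 158 nuclei, described here, and a cluster of 127 nuclei, called the other biliary nuclei below. Membership was taken from the deposited cluster labels alone. All groups came from the same 8 adult wild-type male mice on chow, which the labels call C57BL6J and the study's methods C57BL/6NTac. Liver was a snap-frozen piece of the median lobe, tied off and cut after a flush with EGTA, which binds calcium, had cleared the blood and before any collagenase was given. Cell Suspension was the collagenase-digested remainder of that liver after straining and repeated slow centrifugation, and Primary Hepatocytes were those cells after 24 h of culture on collagen and release with trypsin. Nuclei of 24 samples carried sample-specific hashtag antibodies and were run as 6 pools of 4 samples. The mouse number ties the Liver, Cell Suspension and Primary Hepatocytes samples to 1 animal. Over the 24 samples, the annotated nuclei held between 2709659 and 32104065 RNA molecules (UMIs).

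The mesothelium is a sheet of flat cells, 1 cell thick, that covers the liver capsule and the other surfaces of the body cavity. It arises from the coelomic epithelium of the embryo, is joined by epithelial junctions, rests on a basement membrane and carries a slippery coat of mucins and hyaluronan. Adult mesothelial cells keep Wt1, a transcription factor of the coelomic lining, together with surface proteins such as mesothelin and the uroplakins. Cholangiocytes, the cells of the bile ducts, are also keratin-bearing epithelial cells, and hepatic stellate cells are the vitamin A-storing pericytes of the sinusoids. These are the 2 classes against which the cluster was set, using the 63 other biliary nuclei and the 878 stellate nuclei of Liver.

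Nearly every member came from Liver. The 8 Liver samples held 157 of the 158 nuclei, the Cell Suspension samples 1 and the Primary Hepatocytes samples 0. Mouse by mouse from 1 to 8, the Liver samples gave 53, 8, 32, 9, 22, 4, 20 and 9 members. As a share of the annotated nuclei of each sample these were 1.69%, 0.596%, 1.20%, 0.523%, 0.794%, 0.136%, 0.630% and 0.394%. The cluster was thus present in each Liver sample but its share varied widely among mice, with a mean of 0.746% ± 0.491 (SD, n = 8) and a coefficient of variation of 0.659. For mouse 1, the highest, the 95% exact binomial interval was 1.27% to 2.21%, and for mouse 6, the lowest, it was 0.0372% to 0.349%, so these samples differed beyond counting error. All intervals, and the limits from counts of 0, cover counting error only.

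**Figure D1:**
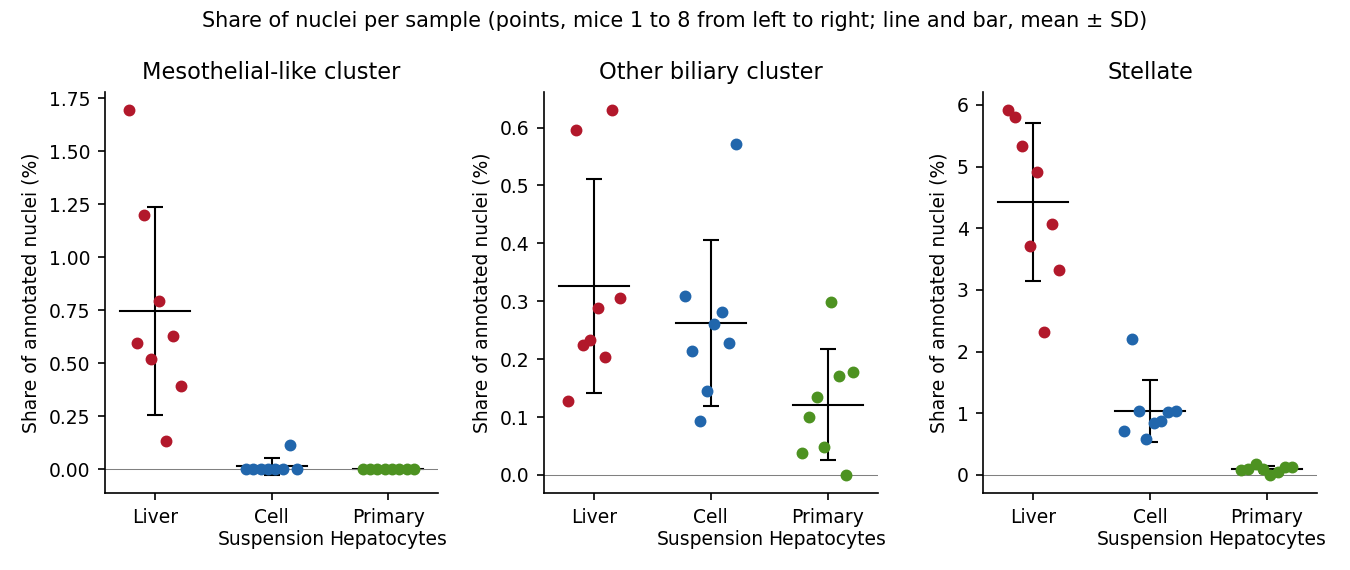
Share of annotated nuclei (%) per sample of each sample type for the mesothelial-like cluster, the other biliary cluster and stellate nuclei; points are mice 1 to 8 from left to right, and the line and bar give the mean ± SD of 8 samples. The mesothelial-like shares lay between 0.136% and 1.69% in Liver and at 0 in all other samples except 1 at 0.114%, whereas other biliary nuclei were found in each Cell Suspension sample.

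The first question was whether the cluster was recovered in the cell preparations made from the same livers. In Cell Suspension the share was 0 in 7 samples and 0.114% in the sample of mouse 7, a mean of 0.0142% ± 0.0402 (SD, n = 8). The difference from Liver was −0.732 percentage points, lower in 8 of 8 mice, with no overlap between the groups (p = 0.000155 in a two-sided exact permutation test with n = 8 per group; adjusted p = 0.000233 by the Benjamini-Hochberg method over 3 pairs). This p-value was the smallest that the unpaired test allowed. The samples of both types came from the same 8 mice. Paired by mouse, p was 0.00781 (exact sign-flip permutation test, n = 8 mice). The ratio of the means was 52.5-fold, and it rests on the 1 nucleus of mouse 7. In Primary Hepatocytes 0 of 18394 nuclei carried the cluster label, which allows a labelled share of up to 0.0163%, and the difference from Liver was −0.746 percentage points (exact permutation test, p = 0.000155, adjusted p = 0.000233, n = 8 per group). Of these nuclei 18118 were annotated as cultured cells, in clusters of their own. A cultured mesothelial nucleus among them could not carry the label, so this count and test cannot decide whether such nuclei were present. Cell Suspension and Primary Hepatocytes differed by −0.0142 percentage points (exact permutation test, p = 1, n = 8 per group). Only the Cell Suspension sample of mouse 7 was above 0, so every arrangement gave this size of difference and the test could decide nothing. Selecting nuclei by UMIs of at least 2 of the 6 marker genes in place of the cluster gave a difference between Cell Suspension and Liver of −0.674 percentage points (exact permutation test, p = 0.000155, n = 8 per group). For Primary Hepatocytes and Liver it was −0.647 percentage points (exact permutation test, p = 0.000155, n = 8 per group). This selection did not depend on the annotation. Of the 18118 cultured nuclei, 12 held at least 2 markers and 0 at least 3.

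The other nuclei of the same annotation were still found after digestion. Their share was 0.326% ± 0.185 in Liver, 0.263% ± 0.143 after digestion and 0.121% ± 0.0963 after culture (SD, n = 8), and they were present in 8 of 8 Cell Suspension samples. Stellate nuclei made up 4.42% ± 1.28, 1.04% ± 0.502 and 0.0955% ± 0.0566 of the same groups. After culture, 18118 of 18394 nuclei carried the annotation of cultured cells. The culture shares of both classes, like that of the members, therefore count only nuclei outside that annotation. The log2 ratio of mesothelial-like to other biliary nuclei, with 0.5 added to each count, was 1.02 ± 1.38 in Liver and −3.03 ± 1.29 in Cell Suspension. It was lower in 8 of 8 mice, by −4.06 on average (p = 0.000155 in the exact permutation test with n = 8 per group; adjusted over 3 related measures, 0.000233). With 1 added it was −3.26, and with members chosen by at least 2 markers −3.12 (exact permutation test, p = 0.000155 each, n = 8). The log2 ratio to stellate nuclei was −2.76 ± 0.65 in Liver and −4.92 ± 1.01 in Cell Suspension, a difference of −2.15 that was again lower in 8 of 8 mice (exact permutation test, p = 0.000777, adjusted p = 0.000777, n = 8 per group). The size of the stellate difference likewise depended on the value added to counts of 0 and on how members were defined: it was −1.32 with 1 added (exact permutation test, p = 0.00435, n = 8) and −1.22 with members chosen by at least 2 markers (exact permutation test, p = 0.0118, n = 8). Among nuclei not annotated as hepatocytes, members made up 2.97% ± 2.43 in Liver and 0.0610% ± 0.172 in Cell Suspension, lower in 8 of 8 mice (exact permutation test, p = 0.000155, adjusted p = 0.000233, n = 8 per group). That denominator included nuclei annotated as cultured cells, 172 in Liver and 780 in Cell Suspension. Without them the difference was −3.02 percentage points (exact permutation test, p = 0.000155, n = 8 per group), a choice made after seeing the data. The place of sampling, the enzyme and the centrifugation all changed together between Liver and Cell Suspension and cannot be told apart here.

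The contrast was also seen within pools. The 4 pools that held both sample types had pooled Liver shares of 0.751%, 0.523%, 0.794% and 0.878%, against 0.114%, 0, 0 and 0 in the Cell Suspension samples of the same pools. Permuting sample types within these pools gave a difference of −0.723 percentage points (p = 0.0104 by exact enumeration, the least that 96 arrangements of 8 Liver and 5 Cell Suspension samples can give in this permutation test). The other 2 pools held no Liver sample and no member.

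The sole member outside Liver carried more of another sample's hashtag than of its own. This nucleus, assigned to Cell Suspension of mouse 7, held 2197 UMIs, among them 1 of Upk1b, 1 of Msln, 6 of Gpm6a and 10 of Efna5, and none of Pkhd1. Of its hashtag UMIs 189, or 14.98%, were those of its own sample, while 675, or 53.5%, were those of the Liver sample of mouse 8. The other 879 nuclei of that sample showed the same leaning, with medians of 24.6% for their own tag and 45.4% for the Liver tag of mouse 8, and 62 of them had an own-tag share as low. In the 186 of them annotated neither as hepatocytes nor as cultured cells, these medians were 18.5% and 49.3%. The demultiplexing margin of the sole member outside Liver was 0.646, against a median of 0.948 and a lowest value of 0.396 over the Liver members, 6 of which had a lower margin than this nucleus. Within Liver, members also carried less of their own tag than hepatocytes of the same sample, 37.0% ± 17.0 against 54.4% ± 12.6, and this held in 7 of 7 samples (p = 0.0156 by exact sign-flip permutation, the least that n = 7 allows). Among samples with at least 10 members the difference was −15.8 percentage points (exact sign-flip permutation, p = 0.125), a test of fewer samples. Pooled over all Liver nuclei, to which the mice contributed unequally in each class, the median own-tag share was 43.1% in members, 29.8% in other biliary, 33.2% in stellate, 30.2% in endothelial, 28.4% in Kupffer, 26.4% in leukocyte and 54.6% in hepatocyte nuclei. Of 337 cell barcodes that occurred in more than 1 pool, 2 belonged to members.

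The 157 Liver members held 525708 UMIs, with a median of 2739 UMIs and 1569 genes per nucleus. The other biliary nuclei had a median of 2848 UMIs and the stellate nuclei of 3299, and the deepest nucleus of each class held 13318, 6320 and 41097 UMIs in the order members, other biliary and stellate. Unspliced RNA made up 76.4% of the members' UMIs. Levels below are counts per 1000000 UMIs (CPM) of summed nuclei, and ranges over mice use samples with at least 5 nuclei of the class, which are 7 for the members (mouse 6 left out), 6 for other biliary nuclei and 8 for stellate nuclei. Comparisons within a mouse could be made in 5 mice against other biliary nuclei and in 7 against stellate nuclei. The classes were clustered on these genes, so differences between them are descriptions with no test. Levels of different genes were not corrected for gene length and are compared only between classes.

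The 6 marker genes named for the cluster were found in it and were scarce in both neighbours. Muc16 encodes a large cell surface mucin that binds mesothelin. Its gene lies on chr9:18495455-18674530 (GRCm38, minus strand). Muc16 stood at 1242 CPM in members, from 954 to 1797 CPM over 7 mice with a median of 1263. It had 0 UMIs in other biliary nuclei, so it was at least 72.9-fold higher in members against a limit of 3 UMIs over that class. In stellate nuclei it was at 1.75 CPM, 711-fold lower (95% interval 325 to 1944). The mouse ranges did not overlap for Muc16 in either comparison.

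Wt1, at chr2:105126529-105173616 on the plus strand, was the marker shared in part with stellate nuclei. Wt1 stood at 645 CPM in members, with 227, 585 and 750 CPM as the lowest, median and highest mouse. In stellate nuclei Wt1 was at 82.4 CPM, from 0 to 168 CPM over mice, which is 7.83-fold lower (95% interval 6.66 to 9.20). A UMI of it was seen in 69 of 878 stellate nuclei (7.86%), so this is a ratio of class sums and not of nuclei that held Wt1. Other biliary nuclei held 1 UMI of Wt1, a ratio of 114 (95% interval 20.2 to 4497). Wt1 was therefore higher in members in 7 of 7 mice against stellate nuclei, without overlap.

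The uroplakins are membrane proteins known from the bladder lining and from mesothelium. Upk1b (chr16:38773184-38800328, minus strand) stood at 443 CPM, from 307 to 643 CPM over mice with a median of 463, and Upk3b (chr5:136038496-136046487, plus strand) at 354 CPM, from 102 to 516 with a median of 354. Neither had a UMI in other biliary nuclei, which puts Upk1b at least 26.0-fold and Upk3b at least 20.8-fold higher. The stellate nuclei held 2 UMIs of Upk1b, a ratio of 761 (95% interval 208 to 6321), and 1 of Upk3b, a ratio of 1215 (215 to 48246). Both genes were above the other classes in each mouse compared.

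Msln, the gene of mesothelin (chr17:25748613-25754378, minus strand), stood at 120 CPM, from 34.1 to 184 over mice with a median of 147. Lrrn4, which encodes a leucine-rich repeat membrane protein (chr2:132868305-132880891, minus strand), stood at 91.3 CPM, from 51.4 to 221 with a median of 102. Neither had a UMI in the other biliary or the stellate nuclei. Msln was at least 7.03-fold higher than in other biliary nuclei and at least 137-fold higher than in stellate nuclei, and Lrrn4 at least 5.36-fold and 105-fold. These limits are lower for other biliary nuclei because that class had the fewest UMIs, 176053 against 3434143.

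**Figure D2:**
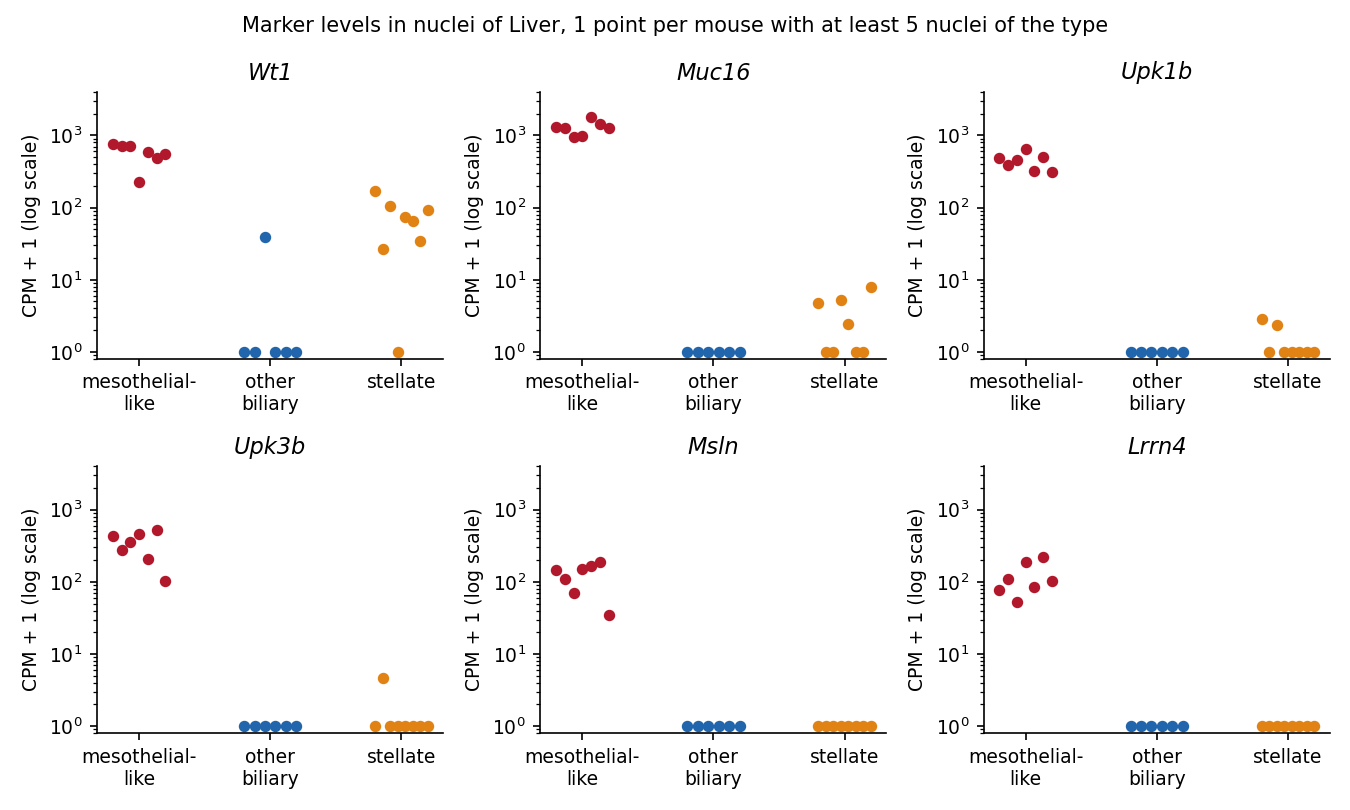
CPM + 1 (log scale) of the 6 marker genes in mesothelial-like, other biliary and stellate nuclei of Liver, 1 point per mouse with at least 5 nuclei of the class. In each panel the 7 mesothelial-like points lie above the points of both other classes, with Wt1 the marker seen most in stellate nuclei (0 to 168 CPM).

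Of the 6 markers, 4 had a UMI in most member nuclei. Muc16 had a UMI in 138 of 157 members (87.9%), Wt1 in 107 (68.2%), Upk1b in 98 (62.4%), Upk3b in 89 (56.7%), Msln in 49 (31.2%) and Lrrn4 in 38 (24.2%). In all, 140 members (89.2%) had UMIs of at least 2 of the 6, against 0 of 63 other biliary nuclei and 0 of 878 stellate nuclei. In hepatocyte nuclei of Liver, which should lack these genes and were deeper at a median of 7695.5 UMIs, the count was 5 of 14998, or 0.0333%. When each nucleus was thinned to 1000 UMIs, which left out 14 members with fewer, 67.8% of members still had at least 2 markers, with Muc16 seen in 68.5% and the other 5 markers in 9.09% to 46.2%. Wt1 was seen in 5.30% of thinned stellate nuclei against 0.0966% of thinned hepatocyte nuclei.

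**Figure D3:**
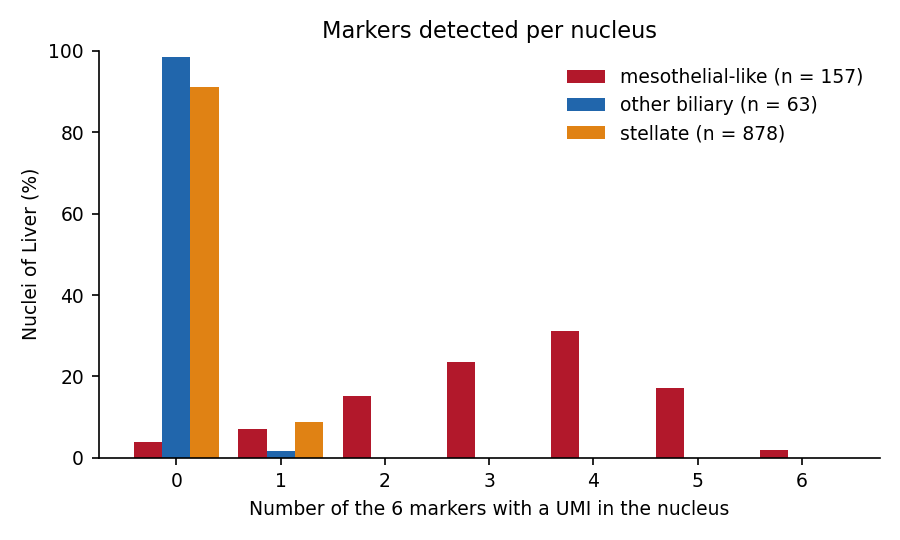
Percent of Liver nuclei (bars) by the number of the 6 markers with a UMI, for 157 mesothelial-like, 63 other biliary and 878 stellate nuclei. Most mesothelial-like nuclei hold 2 to 5 markers (89.2% hold at least 2), and no nucleus of the other classes holds more than 1.

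Members with few markers were shallow. Of the Liver members, 6 had no marker UMI and 11 had 1 marker, with medians of 1064 and 849 UMIs against 2927.5 for the 140 with at least 2 markers. Further mesothelial genes, listed below, summed to 10216 CPM in the 6 nuclei without a marker, against 16140 CPM in the 140. Their biliary list stood at 989 CPM, all of it from Bicc1 (described below), and their stellate list at 165 CPM (1 UMI). In the 140 the biliary list stood at 4026 CPM, with Bicc1 at 3689, and the stellate list at 423 CPM. In the 11 nuclei with 1 marker the biliary list stood at 2111 CPM, with Bicc1 at 1744, and the stellate list at 551 CPM. Outside the cluster, 4 annotated nuclei of Liver held at least 3 markers, namely 1 endothelial nucleus of mouse 1 and 3 hepatocyte nuclei, 1 of mouse 2 and 2 of mouse 6, each with at least 7091 UMIs.

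Across all genes with at least 10 UMIs in the 2 classes together, 1650 of 8484 (19.4%) were at least 2-fold higher in members than in other biliary nuclei and 1563 (18.4%) at least 2-fold lower. Against stellate nuclei 2426 of 13921 (17.4%) were higher and 2338 (16.8%) lower. These balances depended on the 0.5 UMI added to each count. With 2 UMIs added, 1162 genes were higher and 1653 lower than in other biliary nuclei, and 3093 higher and 1291 lower than in stellate nuclei. Of 8438 genes measured in both comparisons, 904 (10.7%) were higher than in each neighbour and 383 (4.54%) lower than in each. The median log2 ratio over all genes was −0.12 against other biliary and 0.06 against stellate nuclei. These shares are the background for the gene lists below, where higher and lower always mean a ratio of at least 2-fold of summed UMIs, with 0.5 UMI added to each. A gene with 0 or 1 UMI in other biliary nuclei passed the minimum of 10 UMIs through the members and had to come out higher. Counts of higher genes against that class are therefore descriptions. They are given with the number of genes at 0 where these are many, and genes at 1 UMI stay in the counts. In the same way a gene with 0 UMIs in members had to come out lower than in either neighbour. One with few UMIs in members had to come out lower than in other biliary nuclei, which held fewer UMIs in all. Members held 525708 UMIs and stellate nuclei 3434143. A gene with 0 or few UMIs in stellate nuclei therefore passed the minimum through the members and had to come out higher. The number of such genes in each list was not counted. These counts are descriptions too.

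The 15 genes most raised over both neighbours included 3 of the 6 markers (Muc16, Upk1b and Upk3b) and reached well beyond them. Pkhd1l1, a relative of the polycystic kidney gene Pkhd1 that encodes a large membrane protein, stood at 888 CPM, from 487 to 1154 over mice. It had 0 UMIs in other biliary nuclei and 1.75 CPM in stellate nuclei, at least 52.1-fold and 508-fold less. Rspo1, a secreted protein that strengthens Wnt signalling, stood at 439 CPM, from 189 to 604, with 0 UMIs in other biliary nuclei and 1 in stellate nuclei. Igfbp5, a secreted binding protein of insulin-like growth factors, ranged from 154 CPM in mouse 3 to 1551 CPM in mouse 4, and was at 0 UMIs and 1.75 CPM in the neighbours. Igfbp5 thus varied widely over mice and was above the neighbours in each mouse compared.

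The remaining genes of that rule were the transcription factor Bnc2, the potassium channel gene Kcnd3, the proton pump subunit gene Atp6v0a4, the neurexophilin gene Nxph1, Dnajc6 (a cochaperone of clathrin uncoating), Unc45b (a myosin chaperone), Sh3rf2, Pcnx2 and the predicted gene Gm29266. Bnc2 stood at 2317 CPM, from 1894 to 3379 over mice, with 3 UMIs in other biliary nuclei and 14.3 CPM in stellate nuclei. Nxph1 stood at 1936 CPM, from 683 to 2383, but only 38.2% of members held a UMI of it, against 88.5% for Bnc2. Kcnd3 stood at 797 CPM and Atp6v0a4 at 363 CPM, both with 0 UMIs in other biliary nuclei. Bnc2, Nxph1, Kcnd3, Dnajc6 and Atp6v0a4 overlap other annotated genes on the same strand, and most reads were unspliced, so part of their counts could belong to the overlapping gene.

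**Figure D4:**
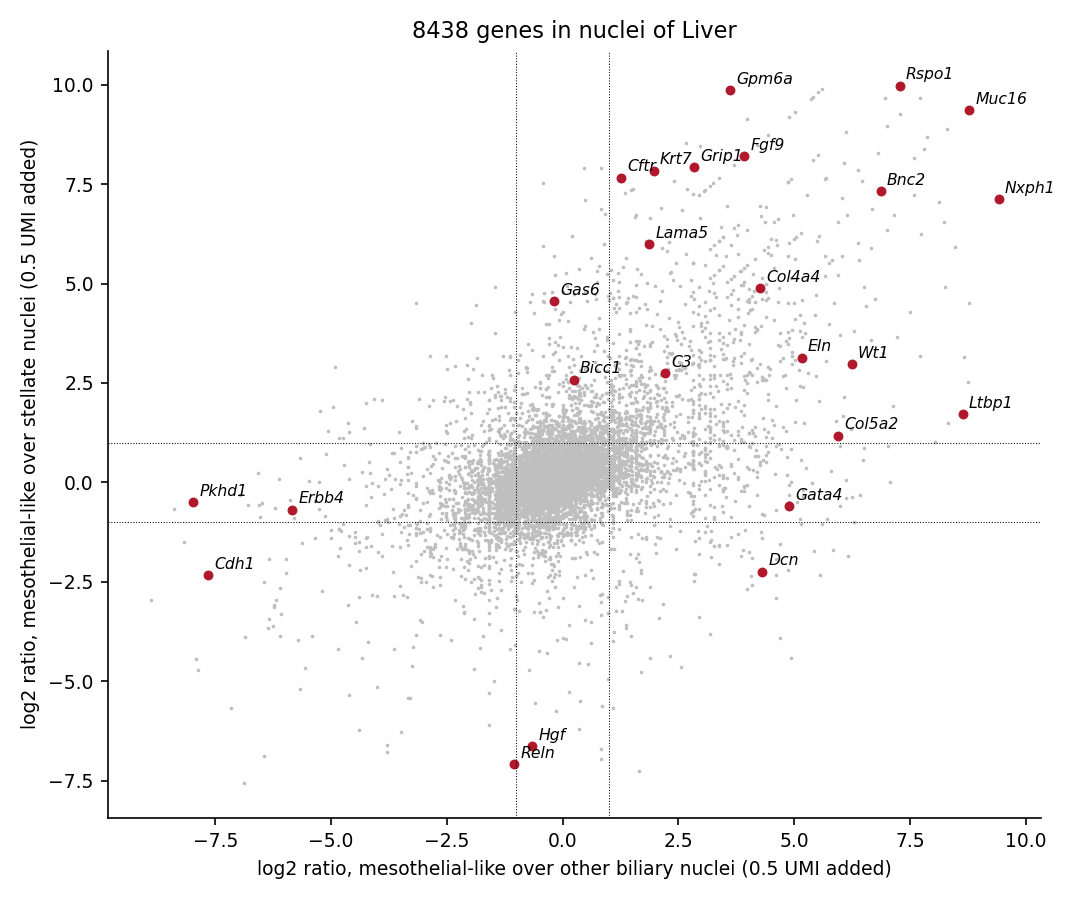
Log2 ratio of summed CPM of mesothelial-like over other biliary nuclei (x axis) and over stellate nuclei (y axis), both with 0.5 UMI added, for 8438 genes of Liver; dotted lines mark 2-fold ratios and named genes are in red. Muc16, Rspo1 and Bnc2 lie at the upper right, Pkhd1 and Cdh1 at the far left, and Reln and Hgf at the bottom.

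A longer list of 21 mesothelial genes, which shares Krt7 and Krt19 with the biliary list, was set against both neighbours. Of 20 measured, 16 were higher, 1 lower and 3 between against other biliary nuclei (median log2 ratio 2.96, or 2.33 with genes at 0 put at their limit). Of the 16, 5 had 0 UMIs in other biliary nuclei, which leaves 11 of 15 genes with a UMI there. Among these 11, Bnc1 held 1 UMI there and also had to come out higher. Against stellate nuclei 17 were higher, 1 lower and 2 between (median 7.15). Among the 17, Bnc1, Krt7, Krt19 and Nkain4 held so few UMIs in stellate nuclei that they had to come out higher. Gpm6a, a neuronal and mesothelial membrane glycoprotein, stood at 2832 CPM, against 227 in other biliary and 2.91 in stellate nuclei, and its 7 mice ran from 1967 to 3622. Ezr, which encodes the microvillus linker ezrin, stood at 896 CPM against 136 and 5.24. Bnc1, a zinc finger factor of mesothelium and germ cells, stood at 360 CPM, with 1 UMI in other biliary nuclei and 1.16 CPM in stellate nuclei. Nkain4 stood at 143 CPM, with 0 and 2 UMIs in the neighbours.

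The list was not uniform. Efna5, an ephrin ligand, was the listed gene with the most UMIs in members, at 5168 CPM against 34.1 in other biliary nuclei, but stellate nuclei also held it at 1356 CPM. Alcam, a cell adhesion molecule, was at 3317 CPM in members and 3488 in other biliary nuclei, with mice from 494 to 4812, and thus did not separate the 2 clusters of the annotation. Cdh2, N-cadherin, was 19.98-fold lower than in stellate nuclei, at 78.0 against 1558 CPM. Calb2, the gene of calretinin and a common histological marker of mesothelium, had 0 UMIs in members; it was singled out after its value was seen.

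The biliary list was divided, and its genes Pkhd1, Spp1 and Sox9 were far lower in members. Pkhd1, the fibrocystin gene of the cholangiocyte cilium, stood at 34.2 CPM in members and 8838 CPM in other biliary nuclei, where 6 samples ran from 7768 to 10638. It was 258-fold lower in members, with no overlap. Spp1, the osteopontin gene, had 0 UMIs in members against 914 CPM, at least 160-fold lower, and Sox9, a progenitor and duct factor, had 0 UMIs against 85.2 CPM, at least 14.9-fold lower. Anxa13, Mtcl1, Scara3 and A230001M10Rik, with Spp1 the 5 genes lowest against other biliary nuclei, had at most 1 UMI in members and 329 to 954 CPM there.

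Members did hold some listed biliary genes at or above the level of other biliary nuclei. Bicc1, an RNA-binding protein linked to cystic kidney disease, stood at 3618 CPM against 3067, with ranges over mice of 2082 to 4904 and 1802 to 4189 that overlapped. Stellate nuclei held Bicc1 at 603 CPM. The keratin genes Krt7 and Krt19 stood at 98.9 and 72.3 CPM against 22.7 CPM each, the latter values resting on 4 UMIs per gene, and at 1 UMI each in stellate nuclei. Cftr, the chloride channel gene of duct epithelium, stood at 87.5 CPM against 34.1. Of 10 biliary genes measured 4 were higher (Krt7, Krt19, Cftr and Slc4a2, the last named after its value was seen), 5 lower and 1 between (median log2 ratio −2.002), and 5 of 7 were higher than in stellate nuclei. Both clusters also shared genes that were lower in stellate nuclei and that no list held, chosen after their values were seen: Sema5a stood at 999 CPM against 1113 in other biliary and 48.3 in stellate nuclei, and Arhgap44 at 639 against 335 and 5.82. Grip1 and Sema3c, at 4135 and 1524 CPM, were found in other biliary nuclei at 574 and 284 CPM and in stellate nuclei at 16.9 and 7.86.

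The stellate programme was low throughout. All 13 listed stellate genes were lower in members than in stellate nuclei, with a median log2 ratio of −5.64. Of these, 3 had 0 UMIs in members and could only come out lower. Reln, the gene of the secreted protein reelin, stood at 36.1 against 5018 CPM, 139-fold lower. Rgs5 and Lhx2 had 0 UMIs in members and at least 123 CPM in stellate nuclei. Vipr1, Colec10, Hhip and Bvht, which were among the genes lowest against stellate nuclei, had at most 1 UMI in members and 169 to 1176 CPM there. None of these genes overlapped between the classes over mice.

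Dcn, the gene of the collagen-binding proteoglycan decorin, was the listed stellate gene with the most UMIs in members, at 280 CPM in members, from 203 to 348 over mice, against 1329 CPM in stellate nuclei, 4.75-fold lower. Other biliary nuclei held 2 UMIs of it. A group of genes chosen after their values were seen was likewise shared with stellate nuclei and scarce in other biliary nuclei. Ltbp1, which holds latent TGF-beta in the matrix, stood at 1130 CPM against 344 in stellate nuclei, Antxr1 at 367 against 195, Gabra3 at 255 against 174, the collagen receptor gene Ddr2 at 196 against 258, and the fibril-associated collagen gene Col14a1 at 896 against 1360. Other biliary nuclei held 0 UMIs of the first 4 and 2 of Col14a1.

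Of 9 coelomic transcription factors measured against other biliary nuclei, 6 were higher, 0 lower and 3 between (median log2 ratio 2.78), and of 15 measured against stellate nuclei 7 were higher and 6 lower. Of the 6, Wt1, Bnc1 and Gata4 held 1 UMI each in other biliary nuclei and had to come out higher. Wt1 is also among the 6 markers, and Bnc2 was picked above as one of the 15 genes most raised. Beside Wt1, Bnc1 and Bnc2 described above, Meis2, a homeobox factor, stood at 1427 CPM, from 988 to 2048, against 267 and 221 CPM. Tead1, the DNA-binding partner of the Hippo pathway's Yap, stood at 974 CPM against 636 and 507, within the 2-fold bounds. Gata4, which the coelomic lining and stellate cells are both known to express, stood at 251 CPM in members and 381 in stellate nuclei, 1.52-fold lower and below them in 7 of 7 mice, with 1 UMI in other biliary nuclei. Lhx2, a stellate factor, was at 0 in members. Members thus shared Gata4 with stellate nuclei, and Wt1 with the few of them in which it was seen, but not Lhx2. These factors were not particular to the 2 classes. The study uses Gata4 as a marker of liver endothelium. The list summed to 4392 CPM in endothelial nuclei of Liver, against 7008 in members, 1346 in other biliary and 1995 in stellate nuclei.

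Of the retinoid genes measured, 5 of 9 lay within 2-fold of other biliary nuclei and 2 of 12 within 2-fold of stellate nuclei (median log2 ratio −0.45 and −1.02). Aldh1a2, which makes retinoic acid and is known from mesothelium, stood at 85.6 CPM against 3 UMIs in other biliary and 2 in stellate nuclei, but the mice ran from 0 in mice 2 and 4 to 375 CPM in mouse 8. Aldh1a1 stood at 122 CPM against 165 and 420, and the receptor gene Rxra at 105 against 102 and 268. Lrat, the enzyme that stores vitamin A as esters, held 1 UMI in members against 148 CPM in stellate nuclei, and the receptor gene Rarb was 18.8-fold lower, at 24.7 against 465 CPM. Rarg stood at 64.7 CPM against 90.9 and 56.5. Of the list, 3 of 12 were higher and 7 lower than in stellate nuclei, and 2 of 9 higher and 2 lower than in other biliary nuclei.

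The surface coat list could be compared with stellate nuclei more than with other biliary nuclei. Of 8 genes measured 5 were higher than in stellate nuclei. Muc16 and Msln were among them, with few or no UMIs there, and had to come out higher. Against other biliary nuclei 6 were measured, and the 5 that came out higher all had 0 UMIs there, so each passed the minimum through the members alone. Muc16 and Msln, which are among these 5, are also among the 6 markers above. Aqp1, a water channel gene, stood at 105 CPM, from 49.1 to 209 over mice, with 0 UMIs in other biliary nuclei (at least 6.14-fold lower) and 6.41 CPM in stellate nuclei. Has1, a hyaluronan synthase gene, stood at 72.3 CPM, but only 7.64% of members held a UMI of it and the median mouse was at 0.

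Junction genes went in both directions. Of 19 measured against other biliary nuclei 4 were higher, 8 lower and 7 between (median log2 ratio −0.36), and of 18 against stellate nuclei 10 were higher and 5 lower (median 1.17). Summed over the list, the level was 2446 CPM in members, 4874 in other biliary and 3080 in stellate nuclei, and lower in members in 5 of 5 and 7 of 7 mice. Cdh2, described above, is in this list and made up much of the stellate sum. The lower sum against stellate nuclei rests on that gene. Cdh1, E-cadherin of most epithelia, held 1 UMI in members against 574 CPM in other biliary nuclei, a ratio of 0.00332 (95% interval 8.31e-05 to 0.0189), and Dsc2, a desmosomal cadherin, 2 UMIs against 96.6 CPM. The tight junction genes Tjp1 and F11r stood at 274 and 242 CPM against 244 and 216 in other biliary and 132 and 32.3 in stellate nuclei. Cldn15, a claudin, stood at 133 CPM with 2 UMIs in each neighbour, and the polarity genes Pard6b and Crb2 at 76.1 and 60.9 CPM with at most 4 UMIs in each. Pard3, a polarity scaffold, was present in all 3 classes, at 827, 1312 and 1047 CPM. Members thus had RNA of the tight junction and polarity genes named here, with almost none of the classical cadherin of epithelia and with N-cadherin far below the stellate level. Among the 8 genes lower than in other biliary nuclei, Cdh1 and Dsc2 are named here, and genes were not counted by kind.

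The basement membrane list was divided by chain. Of 17 genes measured against other biliary nuclei 7 were higher and 2 lower (median log2 ratio 0.36), and of 23 against stellate nuclei 8 were higher and 8 lower (median 0.51). Col4a4 stood at 710 CPM in members, from 444 to 1262 over mice, against 34.1 CPM in other biliary and 23.9 in stellate nuclei, 20.8-fold and 29.7-fold lower. Col4a5 stood at 439 CPM against 301 and 18.6, and Col4a6 at 320 against 102 and 7.57. The other collagen IV genes, added after their values were seen, completed a contrast of the minor and the common chains. Col4a3 stood at 215 CPM against 96.6 and 10.2, whereas Col4a1 and Col4a2, the widespread pair, stood at 26.6 and 60.9 CPM against 266 and 168 in stellate nuclei, 9.99-fold and 2.77-fold lower.

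Laminin genes showed a like exchange. Lama5 stood at 175 CPM in members, from 83.6 to 273, against 45.4 in other biliary and 2.62 in stellate nuclei, while Lama1 held 3 UMIs in members against 469 CPM in stellate nuclei, a ratio of 0.0122 (95% interval 0.00250 to 0.0356). Lamc1, the common gamma chain, stood at 386 CPM against 170 and 471, and Lamc3 at 3 UMIs against 267 CPM in other biliary nuclei. Summed over the list, the level was 2648 to 3347 CPM over 7 mice in members, 941 to 2414 in other biliary and 2138 to 2779 in stellate nuclei, and higher in members in 5 of 5 and 7 of 7 mice. The sum was therefore close to that of stellate nuclei although the chains behind it were different.

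Fibrous matrix genes set members apart from other biliary nuclei far more than from stellate nuclei. Of 15 measured against other biliary nuclei 14 were higher and 1 lower (median log2 ratio 4.30, or 2.01 with genes at their limit), and of 22 against stellate nuclei 7 were higher and 11 lower (median −1.40). Leaving aside 5 genes with 0 UMIs in other biliary nuclei, 9 of 10 were higher than there. Of these 9, at least Col5a2 and Col3a1, with 1 UMI each there, also had to come out higher. Efemp1, a fibulin of elastic fibres, stood at 1855 CPM, from 956 to 2124, against 170 and 181, 10.9-fold and 10.3-fold lower. Eln, the elastin gene, stood at 711 CPM against 81.0 in stellate nuclei, but the mice ran from 0 in mouse 2 to 1549 CPM in mouse 7. The fibrillar collagen genes Col5a2 and Col3a1 stood at 527 and 474 CPM against 233 and 389 in stellate nuclei and 1 UMI each in other biliary nuclei, and Fbn1, the fibrillin gene, at 245 against 218. Tgfbi held 1 UMI and Lum 0 UMIs in members, against 262 and 31.2 CPM in stellate nuclei.

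**Figure D5:**
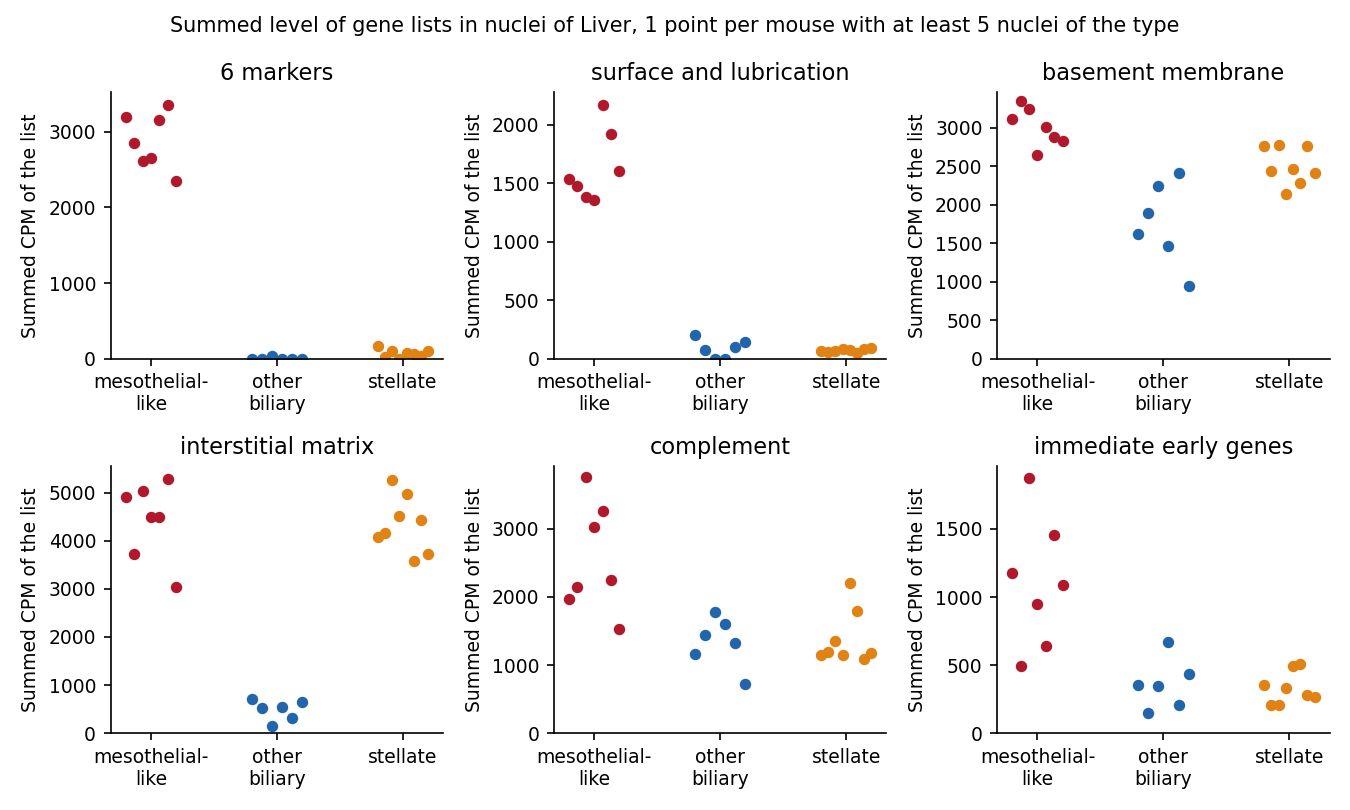
Summed CPM of 6 gene lists in mesothelial-like, other biliary and stellate nuclei of Liver, 1 point per mouse with at least 5 nuclei of the class. The interstitial matrix sums of mesothelial-like nuclei (3038 to 5294 CPM) overlap those of stellate nuclei and lie above other biliary nuclei (155 to 711 CPM), and the immediate early sums range from 494 to 1875 CPM.

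Complement genes, which code for a cascade of plasma proteins made mostly by hepatocytes, and their regulators were higher in 9 and lower in 3 of 13 against other biliary nuclei (median log2 ratio 2.14, or 1.92 with genes at their limit), and higher in 6 and lower in 3 of 14 against stellate nuclei (median 0.83). C3, the central component, stood at 700 CPM, from 274 to 1226 over mice, against 148 and 104 CPM. C4b and Serping1, the C1 inhibitor, stood at 162 and 224 CPM against 34.1 and 56.8 in other biliary nuclei and 43.7 and 117 in stellate nuclei. The surface regulator gene Cd55 stood at 74.2 CPM against 1 UMI and 6.41 CPM, and Cfb at 64.7 CPM against 0 UMIs and 22.1 CPM. Clu, a secreted chaperone, was 13.9-fold lower than in other biliary nuclei, at 57.1 against 795 CPM, and C7 held 2 UMIs against 50.4 CPM in stellate nuclei. The hepatocyte list made up 0.189% of the members' UMIs, against 0.305% in other biliary and 0.358% in stellate nuclei.

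Genes of the insulin-like growth factor axis followed no common direction, with 2 of 8 higher and 2 lower than in other biliary nuclei, or 0 higher of the 6 with a UMI there, and 2 of 10 higher and 4 lower than in stellate nuclei. Igfbp6 stood at 89.4 CPM with 0 UMIs in other biliary and 1.16 CPM in stellate nuclei, beside Igfbp5 above. Igfbp7, at 146 CPM, was 5.08-fold lower than in stellate nuclei, and Igfbp3 held 1 UMI against 80.7 CPM there. Igf1, the ligand, stood at 83.7 CPM against 267 and 233, and the receptor gene Igf1r at 989 against 886 and 729. Members and stellate nuclei thus differed mainly in which binding proteins they held.

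Wnt ligands and modulators included the R-spondins, which enhance Wnt signalling through receptors of the Lgr family. Rspo1 was at 439 CPM in members and 1 UMI in stellate nuclei, while Rspo3 was at 30.4 and 668 CPM, 21.9-fold lower in members. All 16 Rspo3 UMIs of members came from 2 nuclei of mouse 3, so this level and ratio rest on 1 sample, and the other members held 0. The ligand genes Wnt9a and Wnt5a stood at 126 and 59.0 CPM against 11.4 and 22.7 in other biliary and 4.37 and 14.6 in stellate nuclei. The receptor gene Lgr4 stood at 76.1 CPM against 153 and 68.7, and Frzb, a secreted Wnt antagonist, at 0 UMIs against 40.5 CPM in stellate nuclei. Of the list, 5 of 9 were higher and 3 lower than in other biliary nuclei, and 5 of 14 higher and 5 lower than in stellate nuclei.

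Growth factor genes followed no common direction. Fgf9, a fibroblast growth factor, stood at 215 CPM, from 151 to 549, with 2 UMIs in each neighbour. Fgf2 stood at 295 CPM against 1 UMI and 55.3 CPM, and Fgf18 at 53.3 CPM against 0 and 1 UMI. Hgf, the stellate-derived hepatocyte growth factor, was 106-fold lower than in stellate nuclei, at 15.2 against 1614 CPM, whereas its receptor gene Met stood at 399 CPM, from 279 to 492, against 153 and 45.7 CPM. Members thus held RNA of the receptor with little of its ligand. Vegfc, a lymphatic growth factor, stood at 283 CPM against 1 UMI and 402 CPM, and Pdgfc was 36.1-fold lower than in other biliary nuclei, at 19.0 against 687 CPM.

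Among receptors and their other ligands, Gas6, a ligand of the TAM receptors, stood at 700 CPM against 790 in other biliary and 29.7 in stellate nuclei. Erbb4, a neuregulin receptor, was 57.4-fold lower than in other biliary nuclei, at 114 against 6555 CPM. Egfr stood at 995 CPM against 665 and 2125, and Fgfr2 at 590 against 1176 and 3013. Overlap on the same strand limits Erbb4 and Fgfr2. Of the list, 8 of 22 were higher and 6 lower than in other biliary nuclei, or 5 higher and 6 lower of the 19 with a UMI there, and 13 of 27 higher and 9 lower than in stellate nuclei (median log2 ratio 0.20 and 0.89). The summed level was nevertheless lower in members in 5 of 5 and 7 of 7 mice, at 5052 CPM against 13718 in other biliary and 8464 in stellate nuclei. These sums rest on few genes. Erbb4 made up much of the other biliary sum, and Fgfr2, Egfr and Hgf much of the stellate sum.

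Immediate early genes, which cells switch on within minutes of a stimulus such as stretch, were mostly higher in members than in both neighbours. Of 18 measured against other biliary nuclei 13 were higher and 0 lower (median log2 ratio 1.74, or 1.36 with genes at their limit), and of 24 against stellate nuclei 14 were higher and 1 lower (median 1.33). Of the 13, 5 had 0 UMIs in other biliary nuclei, which leaves 8 of 13 genes with a UMI there. The summed level was 494, 1092 and 1875 CPM in the lowest, median and highest mouse, against 148, 352 and 667 CPM in other biliary and 204, 306 and 508 CPM in stellate nuclei. It was higher in members in 5 of 5 and 7 of 7 mice, with ranges that overlapped over mice. Pooled over Liver it was 1322 CPM in members, 351 in endothelial, 430 in Kupffer, 387 in leukocyte and 459 in hepatocyte nuclei. Mouse by mouse it was higher in members in 7 of 7 against endothelial, leukocyte and hepatocyte nuclei and in 6 of 7 against Kupffer nuclei, the exception being mouse 2, whose members had the lowest sum. The highest sum belonged to mouse 3, whose members were also the deepest, with a median of 5123 UMIs against 1995 to 2771 in the other 6, and the part of depth in that sum was not tested.

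The genes behind this sum were transcription factors and early response genes. Jun, a subunit of the AP-1 factor, stood at 183 CPM against 28.4 and 25.6, from 0 in mouse 2 to 326 CPM in mouse 3. Its partner gene Fos stood at 91.3 CPM against 0 UMIs and 5.24 CPM, from 0 to 184, and Atf3, a stress-induced factor, at 97.0 against 0 UMIs and 13.7. Btg2, an antiproliferative gene, stood at 156 CPM against 17.0 and 10.2, and Ccn1, a secreted matrix protein gene that responds to stretch, at 158 against 17.0 and 18.6. Klf6 stood at 114 CPM against 28.4 and 28.8, Klf2 at 59.0 CPM against 0 UMIs and 3.20, and Klf4 at 34.2 CPM against 0 and 3 UMIs. Values per mouse were low counts and mouse 2 had none of Jun or Fos among its 8 nuclei.

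RNA of the endothelial, immune and stellate lists was low but not absent. The endothelial list summed to 75.7 to 209 CPM in 6 of the 7 mice and to 1126 CPM in mouse 8, where 32 UMIs came from 1 nucleus of 10508 UMIs that also held 5 of the 6 markers. Kdr, the endothelial VEGF receptor gene, stood at 89.4 CPM in members against 17.0 and 9.03. The Kupffer cell list summed to 62.8 CPM and the leukocyte list to 32.3 CPM, against 6573 and 6219 CPM in those cells, and the list of portal fibroblasts and smooth muscle to 55.2 CPM, against 117 in stellate nuclei. Of 10 hepatocyte genes 0 were higher and 3 lower than in other biliary nuclei, and 0 higher and 4 lower than in stellate nuclei. Alb, albumin, stood at 550 CPM against 988 and 745. At least 5 UMIs of the stellate list were found in 7 of 157 members and of the endothelial list in 2. For the biliary list without Krt7 and Krt19, which the longer mesothelial list shares, it was 110 of 157, with 1987 UMIs in all and up to 84 in 1 nucleus. These counts rest mostly on the shared gene Bicc1, which stood at 3618 CPM of the 3951 CPM of the whole biliary list.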

How the data were processed

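Single-nucleus RNA was measured in 24 samples, run as 6 pools of 4 hashtagged samples. The authors made the deposited counts with bcl2fastq 2.19.0 and Salmon alevin with alevin-fry against a GRCm38 reference, and these are raw UMI counts per barcode and gene, apart for spliced, unspliced and ambiguous RNA. Deposited hashtag matrices hold counts of hashtag UMIs, and the authors' table of nuclei gives clusters, cell types and a demultiplexing margin as a fraction. The authors removed hashtag and expression doublets before clustering. No column went unmatched. The hashtag labelled CD2 was read as Cell Suspension of mouse 2, which had no other tag.

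Here the 3 splicing states were added and summed per class and sample with Python 3.11.15, numpy 2.4.6, scipy 1.17.1 and pandas 2.3.3. Shares were compared by exact permutation of samples, paired by mouse as an alternative since a mouse number marks 1 animal. The planned edgeR test of members between Cell Suspension and Liver could not be made with 1 nucleus, so no count model was used. Genes with at least 10 UMIs over 2 classes were described by ratios. Ratios with 1 to 3 UMIs on a side have a 95% exact interval, and genes at 0 a limit of 3 UMIs over the class. Scripts were tested on simulated data. Text names the 6 markers, the 15 genes highest over both neighbours and the 5 lowest against each (at least 50 UMIs), and in each list up to 4 genes of highest level and 4 of largest ratio. Gene positions are those of GENCODE vM21. The members and lists were chosen with earlier results of these data known. Some genes that this rule selects are not reported here.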

Additional observations from a re-analysis of the deposited data

Results flagged for a closer look

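Of 86 sets of 4 to 10 samples examined for a sample far from the others, 10 held such a sample. Chance alone gives about 1 in 20 for independent sets. These sets shared mice and some held low counts, so no excess over chance is claimed. The highest Cell Suspension sample stood apart for the share of mesothelial-like nuclei (mouse 7, 0.114%, which is 1 nucleus where the other 7 samples had 0), of other biliary nuclei (mouse 8, 0.572%) and of stellate nuclei (mouse 2, 2.21%). Among Liver samples, the members of mouse 3 stood apart for their median depth, 5123 UMIs. For single genes in the members, the highest mouse stood apart for Pard3 (mouse 8, 1399 CPM), Met (mouse 3, 492 CPM), Fgf9 (mouse 2, 549 CPM), Ccn1 (mouse 3, 331 CPM), Ltbp1 (mouse 4, 2421 CPM) and Gabra3 (mouse 7, 424 CPM).

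The change in number from Liver to Cell Suspension differed between the mesothelial-like cluster and its neighbours, by −2.15 on the log2 scale against stellate nuclei (exact permutation test, p = 0.000777, n = 8) and by −4.06 against other biliary nuclei (exact permutation test, p = 0.000155, n = 8).

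Barcodes outside the authors' table were not part of any comparison. Upk1b, Upk3b and Msln together made up 4.52 in 1000000 UMIs of such barcodes in pool 1, 1.84 in pool 2 and 4.33 in pool 6, above the 0.748 and 1.67 of the 2 pools without a Liver sample. Pool 5, which held a Liver sample, stood at 1.47. Of outside barcodes with at least 200 UMIs, 4 in pool 1 and 2 in pool 6 held at least 3 of the 6 markers, and 0 in the other pools. At least 2 markers were held by 6, 2, 0, 5, 0 and 3 such barcodes in pools 1 to 6, of which pools 3 and 4 held no Liver sample.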

How the results depend on the processing

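With samples paired by mouse (replicate block, exact sign-flip permutation test over 8 mice), p was 0.00781 for the shares of Liver against Cell Suspension (−0.732 percentage points) and against Primary Hepatocytes, for the non-hepatocyte share and for both log2 ratios, and the pairing changed no call. Leaving out each mouse in turn, the differences ran from −0.817 to −0.594 percentage points (Liver to Cell Suspension), −0.833 to −0.610 (Liver to Primary Hepatocytes), −0.0162 to 0 (Cell Suspension to Primary Hepatocytes), −3.17 to −2.07 (non-hepatocyte nuclei), −2.46 to −1.997 and −4.53 to −3.57 (log2 ratios to stellate and other biliary nuclei) and −18.6 to −16.2 (own-tag share). Counts of genes then ran from 1395 to 1641 higher and 1355 to 1546 lower than other biliary nuclei, 2370 to 2431 higher and 2193 to 2414 lower than stellate nuclei, and 782 to 897 higher than both. With members taken as nuclei with at least 2 markers, Primary Hepatocytes exceeded Cell Suspension by 0.0273 percentage points (exact permutation test, p = 0.216, n = 8). With at least 10 nuclei per sample the own-tag difference was −15.8 (exact permutation test, p = 0.125), a test of fewer samples. With 2 UMIs added, 3093 genes were higher and 1291 lower than stellate nuclei. In spliced and ambiguous UMIs, which are fewer, 825 genes were higher and 533 lower than other biliary nuclei and 471 higher than both. A 4-fold ratio left 833, 517, 961, 1051 and 426 genes in the order of the counts above. Of 3098 alternative values of named genes 2884 stayed within 1 SD over mice, 213 moved and 1 turned, the log2 ratio of Rspo3 to other biliary nuclei, which ran from −2.82 (without mouse 3, which held all of its UMIs in members) to 3.86 as each mouse was left out. A further 9 ratios gave no value because neither class had a UMI of the gene in that fraction, among them Gm29266 and Vegfc in spliced and ambiguous and Jun, Klf2 and Lrat in unspliced UMIs. Within-pool permutation, denominators without cultured cells and members with at least 3 markers were chosen after seeing the data. The edgeR test of members in Cell Suspension against Liver and its alternatives were not run, since Cell Suspension held 1 member.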
